A study of Mus musculus with 20 samples.

Results

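The Zscan4 family and its companion genes of the two-cell-like state were followed across 10 mouse pluripotent stem cell lines. The members were taken by name: Zscan4c, Zscan4d, Zscan4f, Tcstv1, Tcstv3, Zfp352 and Usp17lb, and any further gene on the array whose name begins with Zscan4 or Usp17l. They came to 12 genes with 16 probes, of 36492 gene names with 55681 probes on the array. All 12 passed the filter on dim probes, which left 27203 genes for testing. Zscan4d had no probe of its own, and its RefSeq accession is listed among the targets of 3 probes annotated to Zscan4c, Zscan4e and Zscan4f. The following 4 genes stand in the files under older names: Dub1 (Usp17la), Dub1a (Usp17lb), Usp17l5 (Usp17lc) and Dub2a (Usp17ld).

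Zscan4 proteins carry a SCAN domain and zinc fingers. In the mouse, the family is transcribed at the late two-cell stage, when the embryonic genome is first switched on. In embryonic stem cell cultures, a small and changing share of cells enters a two-cell-like state at any time, in which Zscan4, the Tcstv genes, Usp17l deubiquitinase genes and MERVL retroviral elements are transcribed. Zscan4 is known for its part in telomere elongation and genome stability in mouse embryonic stem cells, and Dux is a transcription factor that activates this gene programme. An array of a whole culture reads the sum over its cells, so more cells in that state and more RNA per such cell cannot be told apart here.

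Induced pluripotent stem cells (iPSCs) were compared with embryonic stem cells (ESCs), with 2 arrays for each line. The labels graded 3 iPSC lines as poor quality (KH2_OSKM, Nanog-GFP OSKM#2 and Oct4-GFP OSKM#2), 2 as good quality (BC_2 OSKM and Nanog-GFP SNEL#3) and 2 as high quality (Nanog-GFP SNEL#2 and Oct4-GFP SNEL#1). The reference was made up of 3 ESC lines, Nanog-GFP ESCs, Oct4-GFP ESCs and KH2 ESCs. SNEL stands for reprogramming with Sall4, Nanog, Esrrb and Lin28, and OSKM, by its usual meaning, for Oct4, Sox2, Klf4 and Myc. Nanog-GFP, Oct4-GFP and KH2 name the reporter or parental background, which the iPSC lines other than BC_2 OSKM share with an ESC line. All lines grew untreated in 2i medium without feeder cells, so the inhibitors of 2i are common to every group. A quality grade is thus carried by 2 or 3 lines, and whether a line's 2 arrays stand for 2 cultures is not in the labels. P-values on arrays of a line therefore measure only the spread between those arrays, which may be technical.

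The arrays lay on 3 slides, not evenly by group. Slide 3 held array 2 of each ESC line and of Oct4-GFP SNEL#1 only. Nanog-GFP ESCs and Oct4-GFP ESCs had no array on slide 1. Comparisons of iPSC with ESC lines over all arrays thus mix slide with line. The share of probes read well above background ran between 48.9% and 77.3% from array to array. The 15 measured pluripotency markers were well above background on all 20 arrays, with Pou5f1 between 5.35 and 6.70 and Nanog between 6.72 and 7.44 over the lines. They were not all even. Zfp42 stood at 4.09 in Oct4-GFP SNEL#1 and 4.13 in Oct4-GFP OSKM#2, against 6.10 in Oct4-GFP ESCs and 6.68 in Nanog-GFP OSKM#2, its highest line. Levels are log2 of the processed intensity minus the 75th percentile of the array, so that 0 is the signal at that percentile and 1 unit is a 2-fold step. Levels of different probes are not comparable with each other, and every comparison below is of 1 probe between lines. Where a gene had several probes, the brightest stood for it.

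The probes are oligonucleotides of 60 bases, and several differ from each other at few positions. They are shown because the family's genes are close copies, so a probe can take up RNA of more than the gene it is named for. The Zscan4f probe (mm9 chr7:11987608-11987667, plus strand) and the Zscan4-ps1 probe (mm9 chr7:11650658-11650717, minus strand) share 52 of 58 aligned bases, with the differing bases in capitals.
Zscan4-ps1: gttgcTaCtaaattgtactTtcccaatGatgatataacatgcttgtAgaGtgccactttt
Zscan4f: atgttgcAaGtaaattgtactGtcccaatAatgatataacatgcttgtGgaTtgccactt
The Zscan4a probe (mm9 chr7:11379679-11379738, minus strand) and a Zscan4c probe (mm9 chr7:11595751-11595810, plus strand) share 56 of 58 aligned bases.
Zscan4a: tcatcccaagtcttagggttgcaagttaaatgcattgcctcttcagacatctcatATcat
Zscan4c: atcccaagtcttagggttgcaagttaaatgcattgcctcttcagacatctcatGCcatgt
The Usp17ld probe (mm9 chr7:110398772-110398831, minus strand) and the Usp17lc probe (mm9 chr7:110567420-110567479, plus strand) share 56 of 60 bases.
Usp17ld: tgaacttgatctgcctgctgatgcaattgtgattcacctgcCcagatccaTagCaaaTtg
Usp17lc: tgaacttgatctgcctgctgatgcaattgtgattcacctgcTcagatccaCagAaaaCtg
The 3 Zscan4c probes and 2 Zscan4a probes gave repeated readings of those genes, while the 2 probes named for Usp17la disagreed, as described below. All Zscan4 and Usp17l probes map to chromosome 7 in mm9, and the Zfp352 probe to chromosome 4 (mm9 chr4:89892270-89892329). The file gives no position for the Tcstv1 probe and an unplaced contig for the Tcstv3 probe.

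The stretch around the start of transcription is also nearly shared within the family. RefSeq (GRCm38.p6) gave windows of 300 bases around the start for 7 of the 12 genes, Zscan4c, Zscan4f, the 4 Usp17l genes and Zfp352, and also for Zscan4b and Zscan4d. The Zscan4c and Zscan4f windows have 275 of 277 aligned bases in common (99.3%). They are printed as the most alike of the windows read, with the letters TATAAA in capitals, and their part in the levels was not tested.
Zscan4c (GRCm38.p6 chr7:11005495-11005794, plus strand): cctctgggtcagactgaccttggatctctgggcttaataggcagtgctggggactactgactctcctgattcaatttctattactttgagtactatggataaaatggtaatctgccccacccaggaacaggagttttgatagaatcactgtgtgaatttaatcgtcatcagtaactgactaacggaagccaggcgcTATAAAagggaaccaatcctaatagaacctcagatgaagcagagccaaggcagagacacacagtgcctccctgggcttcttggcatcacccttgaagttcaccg
Zscan4f (GRCm38.p6 chr7:11397665-11397964, plus strand): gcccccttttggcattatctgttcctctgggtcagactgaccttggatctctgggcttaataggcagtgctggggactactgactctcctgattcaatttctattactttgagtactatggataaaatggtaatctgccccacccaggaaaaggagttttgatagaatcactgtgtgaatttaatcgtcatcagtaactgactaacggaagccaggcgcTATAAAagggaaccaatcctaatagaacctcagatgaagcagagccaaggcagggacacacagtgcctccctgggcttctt
TATAAA, searched on both strands, occurs in 13.6% of the 32851 promoters of the same length. It is present once in each of the Zscan4 windows read (b, c, d and f) and once in those of Usp17lb, Usp17lc and Usp17ld, and these letters are not in the windows of Usp17la and Zfp352.

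Zscan4f, whose probe also lists accessions of Zscan4c and Zscan4d transcripts, spanned 9.55 log2 units over the 10 lines, the 9th widest range of 27203 genes. It read 4.29 and 4.37 on the 2 arrays of Oct4-GFP SNEL#1, 3.67 and 3.62 in Oct4-GFP OSKM#2, 2.34 and 2.24 in Nanog-GFP OSKM#2 and 1.30 and 1.18 in BC_2 OSKM. In the other iPSC lines it was at -1.02 and -0.87 in KH2_OSKM, at -2.32 and -2.39 in Nanog-GFP SNEL#2, and at -6.09 and -4.36 in Nanog-GFP SNEL#3, where neither array was well above background. Among the ESC lines it read 0.67 and 0.56 in Nanog-GFP ESCs, -3.21 and -3.05 in Oct4-GFP ESCs and -3.98 and -4.14 in KH2 ESCs. The iPSC lines therefore lay both above and below all ESC lines, and a high-quality SNEL line was at the top while a good-quality SNEL line was at the bottom. No 2 neighbours in this order overlapped on their arrays. Oct4-GFP SNEL#1 read 751-fold above Nanog-GFP SNEL#3, an inexact ratio because the lower line was not well above background. Folds against such a line are ratios of readings, with a floor described below, and not lower bounds. They hold for the processed intensity only. In the 6 comparisons of a line with its own ESC line, 16 called differences were of this kind. All 16 were smaller by over 1.5 times in log2 with normexp background or the authors' value table. So were 10 of the 27 other called differences. The lines differed in limma's moderated F test (adjusted p = 6.17e-09), as did 61.5% of all genes tested.

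**Figure D1:**
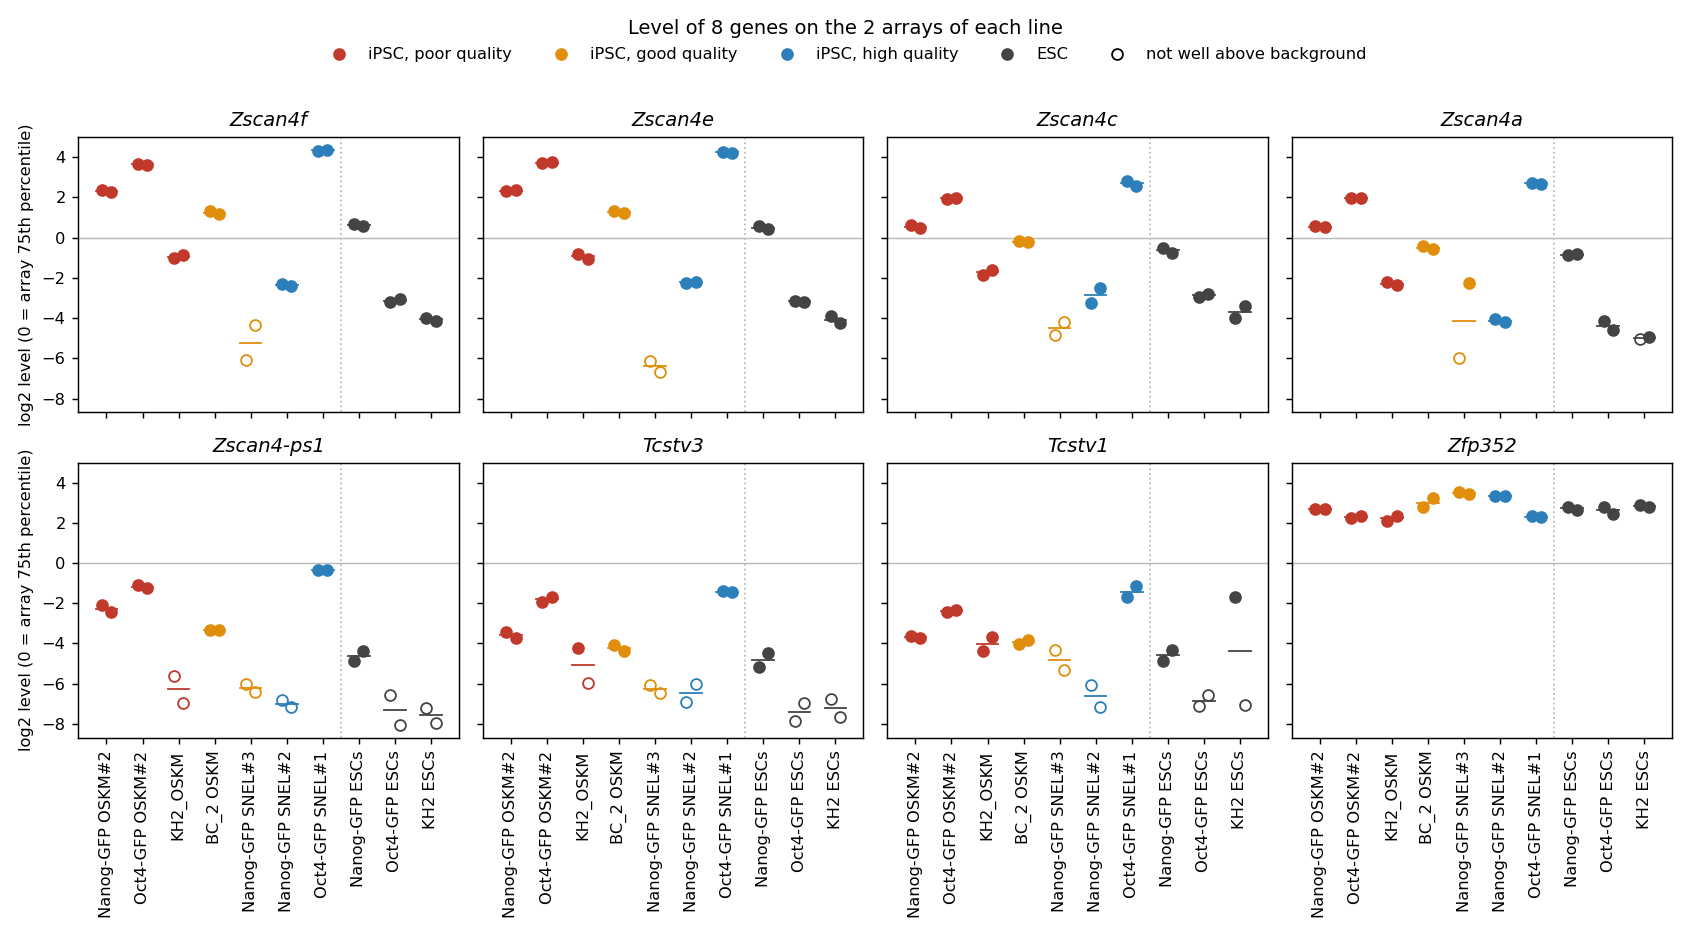
Log2 level (0 is the 75th percentile of the array) of 8 genes on each of the 2 arrays of the 10 lines, iPSC lines left and ESC lines right of the dotted line, with a short bar at the line mean and open circles where the probe was not well above background. Zscan4f runs between 4.37 on an array of Oct4-GFP SNEL#1 and -6.09 on an array of Nanog-GFP SNEL#3, and Zfp352 stays between 2.08 and 3.51 in all lines.

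The other Zscan4 probes followed the same order of lines at the top. Zscan4e, whose probe also lists accessions of Zscan4d and Zscan4f transcripts, had a range of 10.64, the 5th widest of all genes. It averaged 4.23 in Oct4-GFP SNEL#1, 3.72 in Oct4-GFP OSKM#2, 2.33 in Nanog-GFP OSKM#2, 1.27 in BC_2 OSKM, -0.94 in KH2_OSKM, -2.22 in Nanog-GFP SNEL#2 and -6.41 in Nanog-GFP SNEL#3. Its ESC line means were 0.50 in Nanog-GFP ESCs, -3.18 in Oct4-GFP ESCs and -4.07 in KH2 ESCs. Its lowest line was again not well above background on either array, and the top line read 1550-fold above it. The brightest Zscan4c probe averaged 2.70 in Oct4-GFP SNEL#1 and 1.95 in Oct4-GFP OSKM#2, then 0.53 in Nanog-GFP OSKM#2, -0.20 in BC_2 OSKM, -1.73 in KH2_OSKM, -2.87 in Nanog-GFP SNEL#2 and -4.50 in Nanog-GFP SNEL#3. In the ESC lines it averaged -0.64 in Nanog-GFP ESCs, -2.87 in Oct4-GFP ESCs and -3.71 in KH2 ESCs. Nanog-GFP SNEL#2 and Oct4-GFP ESCs did not differ beyond their arrays for this probe, the only neighbours of which that was so. The pseudogene Zscan4-ps1 was well above background on 10 of 20 arrays, those of Oct4-GFP SNEL#1, Oct4-GFP OSKM#2, Nanog-GFP OSKM#2, BC_2 OSKM and Nanog-GFP ESCs.

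Over the 28 pairs of Zscan4 probes, the correlation across the 10 line means lay between 0.90 and 1.00, with a median of 0.98. These pairs share arrays and, in part, sequence, so the figure describes repeated readings of close copies. For Zscan4a the 2 arrays of Nanog-GFP SNEL#3 parted by 3.73 (-5.99 on array 1, not well above background, and -2.27 on array 2), while its second probe was at -6.03 and -6.46 there. The mean of the brightest Zscan4a probe in that line thus rests on 1 array.

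Tcstv1 and Tcstv3 are named for variable transcripts of the two-cell embryo. Tcstv3 read -1.41 and -1.42 in Oct4-GFP SNEL#1, -1.91 and -1.70 in Oct4-GFP OSKM#2, -3.45 and -3.73 in Nanog-GFP OSKM#2, -4.07 and -4.37 in BC_2 OSKM and -4.24 and -5.95 in KH2_OSKM. It was not well above background in Nanog-GFP SNEL#2 and Nanog-GFP SNEL#3. In Nanog-GFP ESCs it read -5.19 and -4.49, and it was not well above background in the other ESC lines. Oct4-GFP SNEL#1 read 63.4-fold above Oct4-GFP ESCs, the lowest line. Tcstv1 showed its highest line means in the same 2 iPSC lines, -1.43 in Oct4-GFP SNEL#1 and -2.38 in Oct4-GFP OSKM#2. Its reading in KH2 ESCs was -1.68 on array 1 and -7.03 on array 2, a gap of 5.35 between arrays of 1 line, so no level can be given for that line. Across the 10 line means, the correlation with Zscan4f was 0.94 for Tcstv3 and 0.76 for Tcstv1.

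The Usp17l genes encode deubiquitinating enzymes first found as genes induced by cytokines in blood cells. Usp17lb read -1.49 and -1.49 in Oct4-GFP SNEL#1, -1.89 and -1.96 in Oct4-GFP OSKM#2, -3.70 and -3.83 in Nanog-GFP OSKM#2 and -4.03 and -4.11 in BC_2 OSKM. Both Nanog-GFP SNEL lines were not well above background. In the ESC lines it read -4.59 and -5.17 in Nanog-GFP ESCs and was not well above background in Oct4-GFP ESCs and KH2 ESCs. KH2_OSKM was split, with -5.45 (not well above background) on array 1 and -1.09 on array 2, so its high line mean rests on a single array. Usp17lc ranged over 2.28 and Usp17ld over 1.69, against a median of 1.12 over all genes, each with its highest mean in Oct4-GFP SNEL#1 (-2.89 for Usp17lc and -2.64 for Usp17ld).

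The 2 Usp17la probes disagreed. The brighter one ranged over 1.27 only, with its lowest mean in Oct4-GFP SNEL#1, and did not pass the F test (adjusted p = 0.0619). The dimmer one averaged -1.65 in Oct4-GFP SNEL#1, -2.60 in Oct4-GFP OSKM#2 and -4.22 in BC_2 OSKM, and it was not well above background in Oct4-GFP ESCs, KH2 ESCs, KH2_OSKM and both Nanog-GFP SNEL lines. Its range was 6.64, and the top line read 87.9-fold above Oct4-GFP ESCs. Which of these probes reads Usp17la was not tested, and values named Usp17la below are those of the brighter one.

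Zfp352, a zinc finger gene transcribed in the two-cell embryo, was the exception among the named genes. It was well above background on all 20 arrays and ranged over 1.24 only, at rank 12003 of 27203 genes. Its highest line means were 3.46 in Nanog-GFP SNEL#3 and 3.33 in Nanog-GFP SNEL#2, the iPSC lines with the lowest Zscan4f. Its lowest were 2.22 in KH2_OSKM, 2.30 in Oct4-GFP OSKM#2 and 2.31 in Oct4-GFP SNEL#1, while the ESC lines averaged between 2.63 and 2.84. Its correlation with Zscan4f over the 10 line means was -0.63, and the F test passed (adjusted p = 0.000106).

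**Figure D2:**
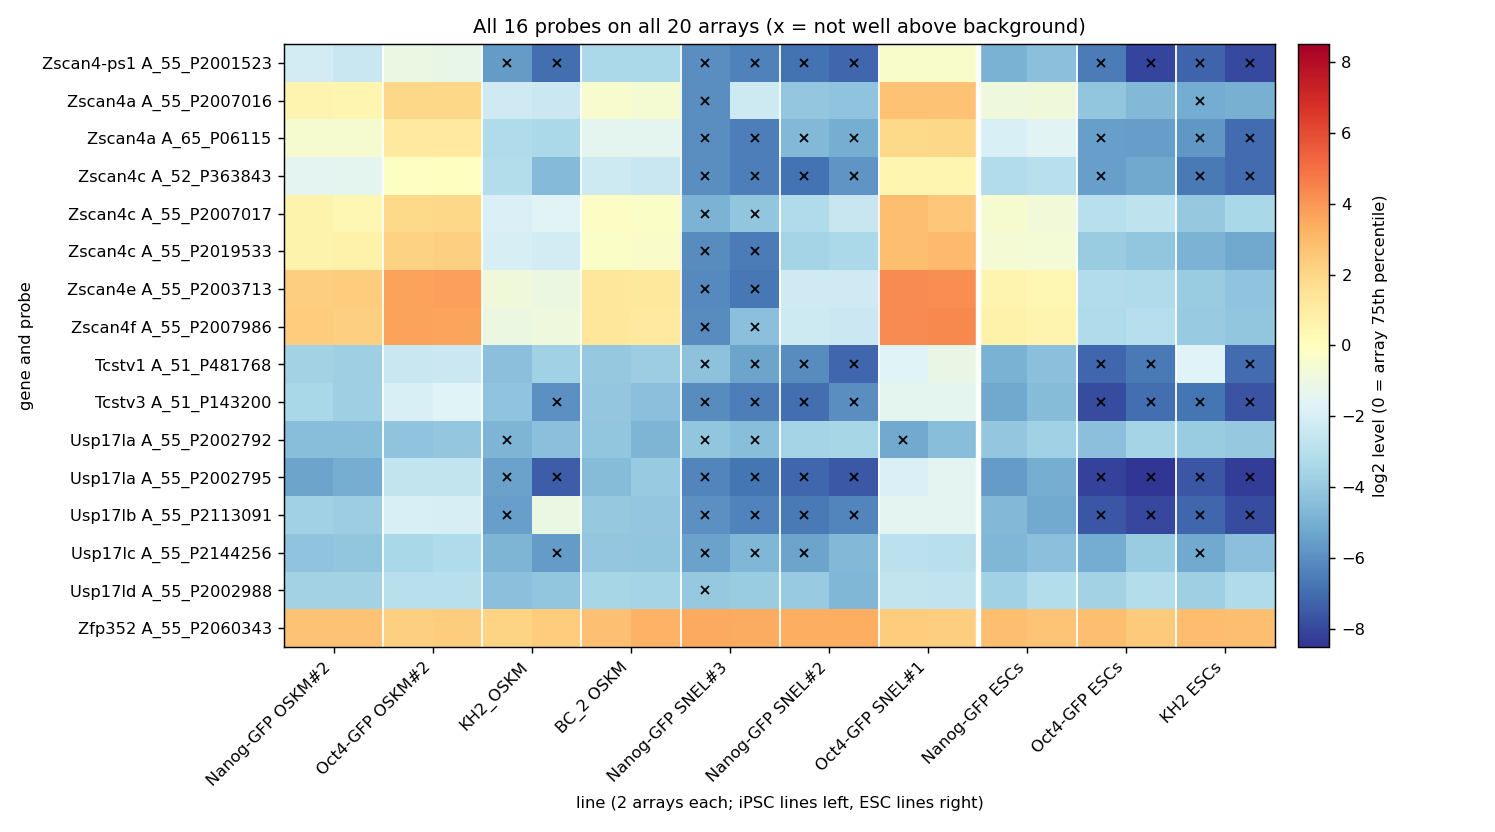
Log2 level of all 16 probes (rows, named by gene and probe) on all 20 arrays (columns, 2 per line, iPSC lines left and ESC lines right of the wide gap), with a cross where the probe was not well above background. The Zscan4 rows are warmest in Oct4-GFP SNEL#1 and Oct4-GFP OSKM#2, the 2 Usp17la rows differ, and the Zfp352 row is warm throughout.

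Averaged over the 12 genes after centring each on its mean over lines, Oct4-GFP SNEL#1 stood at 2.72, Oct4-GFP OSKM#2 at 2.27, Nanog-GFP OSKM#2 at 1.18, BC_2 OSKM at 0.71, KH2_OSKM at -0.41, Nanog-GFP SNEL#2 at -1.35 and Nanog-GFP SNEL#3 at -1.84. On the same scale Nanog-GFP ESCs stood at 0.24, Oct4-GFP ESCs at -1.73 and KH2 ESCs at -1.79. Nanog-GFP SNEL#3, Oct4-GFP ESCs and KH2 ESCs were the last 3 lines in this order. In all, 11 of the 12 genes passed the F test between lines, against 61.5% of all genes.

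Each iPSC line other than BC_2 OSKM was set against the ESC line of its own reporter, in a model with 1 mean per line over all 20 arrays. Pairs that share an ESC line share its arrays. Several Zscan4 probes list some of the same transcripts, so the Zscan4 genes in the counts below are not independent readings. In the Oct4-GFP background, both reprogrammed lines were higher than the ESC line. Oct4-GFP SNEL#1 exceeded Oct4-GFP ESCs in 9 genes and fell below it in 0, against 14.8% of all genes called higher and 21.9% called lower. Zscan4f differed by 7.46 ± 0.38 (SE, adjusted p = 4.33e-08), Zscan4e by 7.41 ± 0.15 (adjusted p = 7.43e-11) and Zscan4c by 5.57 ± 0.27 (adjusted p = 2.96e-08). Against ESC readings not well above background, Tcstv3 read 63.4-fold higher (adjusted p = 3.76e-06), Usp17lb 79.0-fold (adjusted p = 0.000262) and Tcstv1 42.6-fold (adjusted p = 0.00368). With normexp background these 3 log2 differences were 2.42, 2.35 and 2.34, and they were 3.08, 3.15 and 3.04 with the authors' value table, while Zscan4f was at 6.69 and 7.13. The poor-quality line Oct4-GFP OSKM#2 exceeded the same ESC line in 8 genes and fell below it in 0, against 11.1% and 9.56% of all genes. Zscan4f differed by 6.77 ± 0.38 (adjusted p = 2.44e-07), and Tcstv3 read 48.5-fold higher (adjusted p = 1.75e-05). That log2 difference of 5.60 for Tcstv3 was 2.10 with normexp and 2.70 with the authors' value table. The call of Tcstv1 there (4.47, adjusted p = 0.0207) was lost with slide as a block, at 3.86.

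In the Nanog-GFP background the lines parted in both directions. Nanog-GFP OSKM#2, graded poor, exceeded Nanog-GFP ESCs in 4 genes and fell below it in 0 (background 16.6% higher and 16% lower). These were Zscan4f (1.68 ± 0.38, adjusted p = 0.00443), Zscan4e (1.83 ± 0.15, adjusted p = 2.37e-06), Zscan4c (1.18 ± 0.27, adjusted p = 0.00488) and Zscan4-ps1 (2.34 ± 0.49, adjusted p = 0.00278). Nanog-GFP SNEL#3, graded good, was lower than Nanog-GFP ESCs in 5 genes, all of them Zscan4 genes, and higher in Zfp352 alone (background 21.2% higher and 17.8% lower). There Zscan4e read 116-fold lower (adjusted p = 4.29e-11), Zscan4f 57.1-fold lower (adjusted p = 1.92e-07) and Zscan4c 14.5-fold lower (adjusted p = 3.58e-07). Zfp352 was higher by 0.75 ± 0.15 (adjusted p = 0.00161). In log2, Zscan4e was at -6.91, but at -3.67 with normexp and -4.83 with the authors' value table, Zscan4f at -5.84, -3.63 and -4.70, and Zscan4c at -3.86, -2.12 and -2.86. Nanog-GFP SNEL#3 also had the lowest share of probes well above background of all lines (48.9% and 51.5%) and 75th percentile signals of 513 and 622, whose part in these differences was not tested. Nanog-GFP SNEL#2, graded high, was lower in 7 genes and higher in Zfp352 alone (background 17.5% higher and 15.7% lower). Its Zscan4f lay at -2.96 ± 0.38 relative to Nanog-GFP ESCs (adjusted p = 7.61e-05), its Zscan4c at -2.22 ± 0.27 (adjusted p = 5.03e-05), and its Zfp352 at 0.61 ± 0.15 (adjusted p = 0.00715). Both SNEL lines were thus below and the OSKM line above the ESC line with the same reporter.

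KH2_OSKM, graded poor, exceeded KH2 ESCs in 6 genes and fell below it in 2 (background 20.3% higher and 22.9% lower). Zscan4f rose by 3.12 ± 0.38 (adjusted p = 3.07e-05), Zscan4e by 3.13 ± 0.15 (adjusted p = 1.44e-08) and Zscan4c by 1.98 ± 0.27 (adjusted p = 7.84e-05). Zfp352 fell by 0.61 (adjusted p = 0.00503), and Usp17ld fell by 0.74 (adjusted p = 0.0451). The call of Usp17lb (4.25, adjusted p = 0.00318) rests on array 2 of KH2_OSKM: on slide 1, which held array 1, the difference was 1.72. Tcstv3 was called (2.10, adjusted p = 0.00653) but not with quantile normalization, normexp background or the authors' value table, where it differed by 0.91, 0.25 and 0.27. Tcstv1 did not pass (0.34, adjusted p = 0.854).

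Within 1 slide each pair sets 1 array against 1 array. There the Zscan4f differences kept their sign in all 6 pairs: 7.42 for Oct4-GFP SNEL#1, 6.82 for Oct4-GFP OSKM#2, 1.58 for Nanog-GFP OSKM#2, 2.96 for KH2_OSKM, -3.05 for Nanog-GFP SNEL#2 and -5.02 for Nanog-GFP SNEL#3. Over all 12 genes, 6 of the 72 pair values turned sign within a slide, and 0 of these 6 were among the 43 called. They were Tcstv1 in KH2_OSKM (-2.67 on slide 1, 0.34 over both arrays), Usp17la in Oct4-GFP OSKM#2, Usp17ld in Nanog-GFP OSKM#2 and Usp17lc in KH2_OSKM and both Nanog-GFP SNEL lines. The share of probes well above background differed between the 2 arrays of Oct4-GFP SNEL#1 (49.6% and 68.0%), on which Zscan4f read 4.29 and 4.37.

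**Figure D3:**
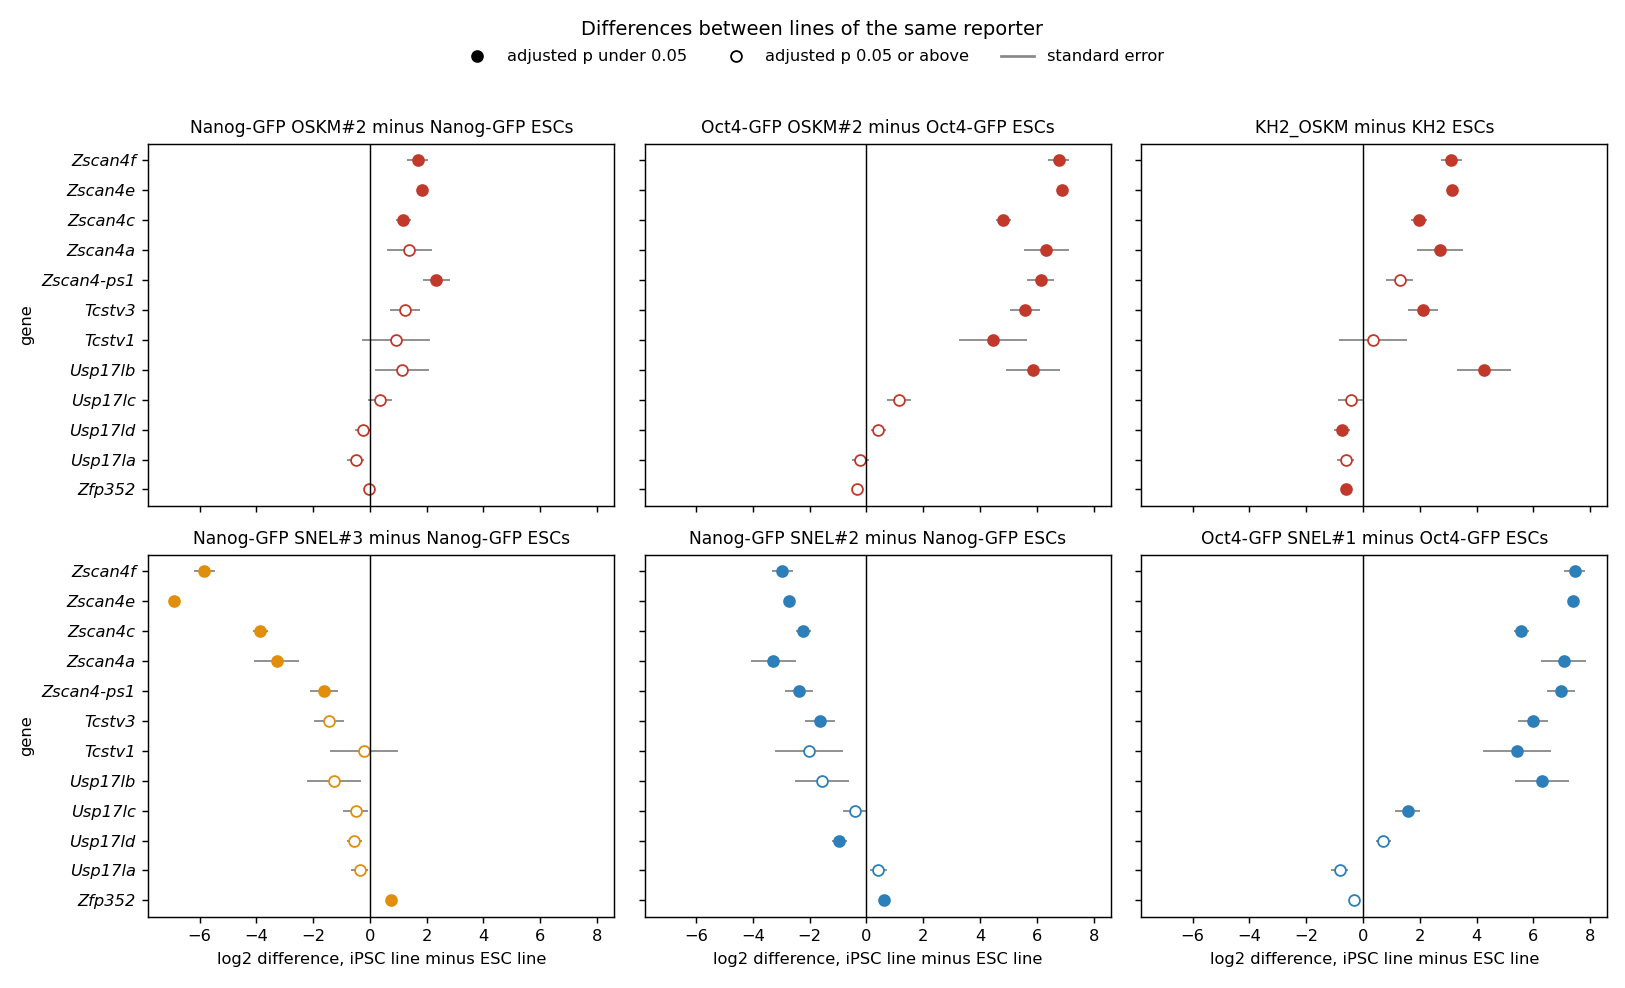
Log2 difference (iPSC line minus the ESC line of the same reporter) of the 12 genes in 6 pairs, with the standard error as a bar and filled circles where the adjusted p was under 0.05. The Zscan4 genes lie right of 0 in Oct4-GFP SNEL#1, Oct4-GFP OSKM#2, KH2_OSKM and Nanog-GFP OSKM#2 and left of 0 in Nanog-GFP SNEL#3 and Nanog-GFP SNEL#2.

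SNEL and OSKM lines of the same reporter were compared after the levels of the lines had been seen. Nanog-GFP SNEL#2 was lower than Nanog-GFP OSKM#2 in 6 genes and higher in 2, Zfp352 and Usp17la (background 16.1% higher and 15.3% lower). The dimmer Usp17la probe ran the other way, at -7.35 (not well above background) in Nanog-GFP SNEL#2 and -5.17 in Nanog-GFP OSKM#2. Zscan4f differed by -4.64 ± 0.38 (adjusted p = 2.05e-06). Nanog-GFP SNEL#3 was lower than Nanog-GFP OSKM#2 in 6 genes and higher in Zfp352 alone (background 17.5% and 15.3%). Zscan4f read 183-fold lower there (adjusted p = 4.27e-08), at -7.51 in log2 but -5.23 with normexp and -6.40 with the authors' value table. Oct4-GFP SNEL#1 was above Oct4-GFP OSKM#2 in 1 gene, Zscan4e (0.52 ± 0.15, adjusted p = 0.0207), and below it in 0 (background 11.9% higher and 19.5% lower). Zscan4f differed by 0.69 ± 0.38 there, which did not pass (adjusted p = 0.216).

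The difference between reporters was tested directly as an interaction. For SNEL minus OSKM, Oct4-GFP (SNEL#1) minus Nanog-GFP (both SNEL lines averaged), 6 genes were higher and 2 lower (background 14.3% and 21.1%), with Zscan4f measured at 6.77 (adjusted p = 1.02e-06). The 2 lower were Zfp352 and Usp17la, and the dimmer Usp17la probe lay in the other direction. For SNEL minus ESC, 10 genes were higher and 1 lower (background 18.5% and 26.5%), with Zscan4f measured at 11.86 (adjusted p = 3.64e-09) and Zfp352 at -0.99 ± 0.20 (adjusted p = 0.00122). Both sizes for Zscan4f are inexact, since Nanog-GFP SNEL#3 enters them and was not well above background on either array. Among the 12 genes, Zfp352 alone was well above background on both arrays of that line. Each reporter has 1 OSKM line, 1 ESC line and 1 or 2 SNEL lines, so reporter and single line cannot be told apart.

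Quality grades were compared with the line as the replicate, since Zscan4f differed far more between lines of a grade than between arrays of a line. Zscan4f averaged 1.66 ± 2.36 in poor lines (SD, n = 3), -1.99 ± 4.57 in good lines (n = 2), 0.99 ± 4.72 in high lines (n = 2) and -2.19 ± 2.47 in ESC lines (n = 3). The SD within each grade was of the order of the differences between them. Poor minus ESC was 3.86 ± 2.36 (SE, adjusted p = 0.711), good minus ESC 0.20 ± 2.64 (adjusted p = 1) and high minus ESC 3.18 ± 2.64 (adjusted p = 0.968) in limma. Without Oct4-GFP SNEL#1 the high lines' difference was -0.16, and without Nanog-GFP SNEL#2 it was 6.52, so each high line alone gives another answer. Without Nanog-GFP SNEL#3 the good lines' difference was 3.43, and without BC_2 OSKM it was -3.03.

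None of the 12 genes passed in poor, good or high lines against ESC lines or in all iPSC against ESC lines, where 0% of all genes did. At an unadjusted p under 0.05 stood 1 of the 12 in poor, 0 in good and 0 in high lines against ESC, and 1 in all iPSC against ESC, beside 2649, 1704, 1603 and 2542 of all genes. The median difference over the 12 genes was 2.82 for poor, 0.35 for good, 2.43 for high and 2.09 for all iPSC lines against ESC lines, beside -0.03, -0.06, -0.07 and -0.04 over all genes. For Usp17lb the 3 poor lines (-3.77 in Nanog-GFP, -1.93 in Oct4-GFP and -3.27 in KH2) lay above the 3 ESC lines (-4.88, -7.79 and -7.52), by 3.74 ± 1.34 (SE, adjusted p = 0.414), with the KH2_OSKM mean resting on 1 array. Line means of poor and ESC lines did not overlap for 3 of the 12 genes, as for 17.5% of all genes. Usp17lb and Tcstv1 were higher in poor lines, and Usp17la was lower. For Tcstv1 this rests on the KH2 ESC mean, for which no level can be given, and poor minus ESC was -1.79 on slide 1 and 2.74 on slide 2. Good and ESC lines did not overlap for 3 of the 12 genes, as for 21% of all genes. Zfp352 was higher in good lines, and Usp17la and Usp17ld were lower. Both counts of 3 of 12 are near the shares of all genes. For Usp17ld, BC_2 OSKM and KH2 ESCs lay 0.05 apart with overlapping arrays, and good minus ESC was 0.02 on slide 1 and -0.05 on slide 2. The arrays of BC_2 OSKM and KH2 ESCs also overlapped for Zfp352. Zfp352 averaged 2.40 ± 0.25 in poor, 3.23 ± 0.33 in good, 2.82 ± 0.72 in high and 2.73 ± 0.11 in ESC lines.

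By factor set, Zscan4f averaged -1.08 ± 4.90 in SNEL lines (n = 3) and 1.56 ± 1.94 in OSKM lines (n = 4), a difference of -2.64 ± 2.15 (adjusted p = 0.691). The SNEL mean joins the highest line and the 2 lowest iPSC lines. Without Oct4-GFP SNEL#1 the difference was -5.35, and without Nanog-GFP SNEL#3 it was -0.57. Of the 12 genes, 0 passed (background 0.00735%), and 0 did at an unadjusted p under 0.05, beside 2563 of all genes. All iPSC lines averaged 0.43 ± 3.45 (n = 7), against -2.19 ± 2.47 in ESC lines.

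**Figure D4:**
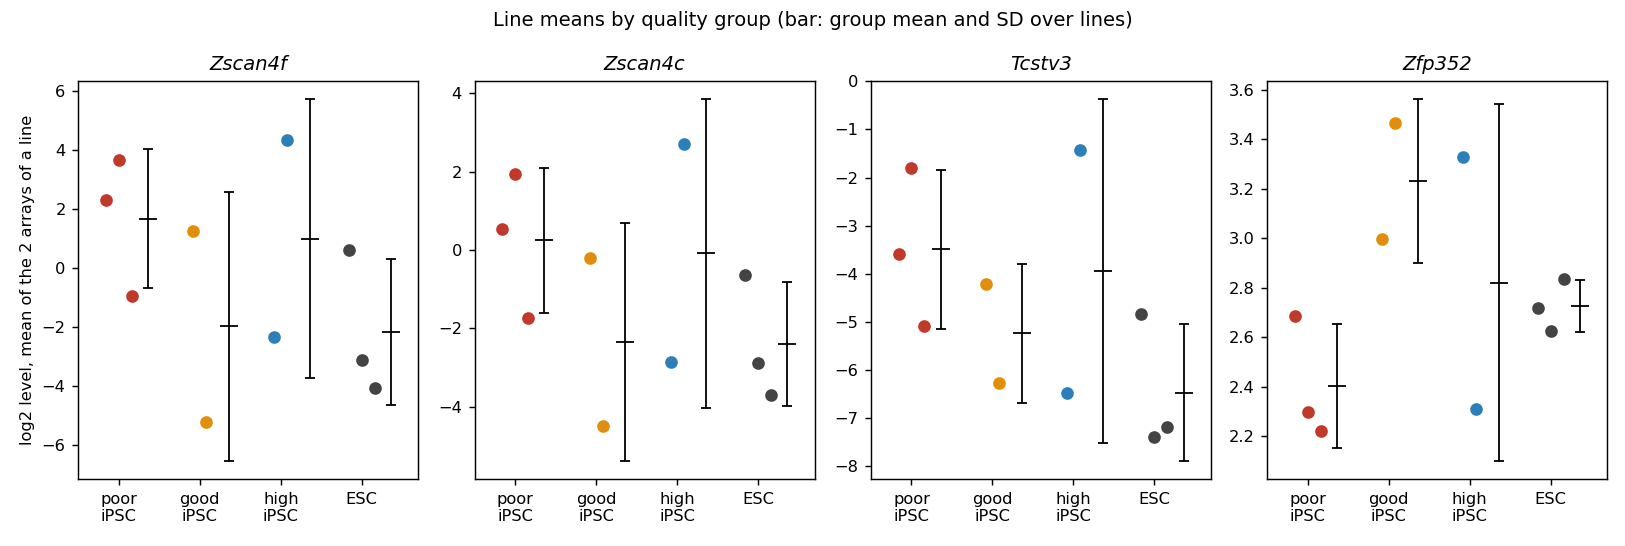
Log2 level (mean of the 2 arrays) of Zscan4f, Zscan4c, Tcstv3 and Zfp352 in each line, by quality grade, with the group mean and SD over lines as a black bar beside the points and a scale of its own for each gene. The 2 high-quality lines lie at 4.33 and -2.35 for Zscan4f, above and within the ESC lines.

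The 10 other genes most like the members were found by Pearson correlation with the members' centred mean over the 10 lines, among 27191 genes. They reached 0.992 to 0.997, and 118 genes were over 0.9. This list holds BB287469, LOC637578, LOC635676, Gm4781, ENSMUST00000110144, LOC641136, Gm2046, ENSMUST00000106892, Gm4340 and Gm4312. BB287469 averaged 3.42 in Oct4-GFP SNEL#1 and -3.46 in Nanog-GFP SNEL#3, against -0.23 in Nanog-GFP ESCs and -3.47 in KH2 ESCs. ENSMUST00000106892 is also listed among the accessions of the Usp17lc probe. Of these, 4 probes map to chromosome 12, 3 to chromosome 10, 1 to chromosome 5 and 1 to chromosome 7 in mm9. The 5 least like, AI503301, LOC637796, Tom1l1, Sh3gl2 and Dnajc11, had correlations of -0.954 to -0.973 but ranges of 0.50 to 1.14 only.

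Other genes of the two-cell-like state were measured in 24 of 36 names that are not members. For 10 of the 24 the correlation with the members' mean was over 0.9, and the median range over lines was 5.04 beside 1.12 over all genes. AF067061 ranged over 8.46, with line means of 3.99 in Oct4-GFP SNEL#1, 3.39 in Oct4-GFP OSKM#2 and -4.47 in Nanog-GFP SNEL#3, against 0.35 in Nanog-GFP ESCs and -3.51 in KH2 ESCs. Gm8300 ranged over 8.49, Gm2022 over 8.12, Gm4340 over 7.54, Tmem92 over 7.22, Pramel31 over 8.70 and Pramel19 over 6.93, each highest in Oct4-GFP SNEL#1. Pramel30 ranged over 5.83 with another order, highest in Nanog-GFP OSKM#2 (-0.01). Against Oct4-GFP ESCs, 16 of the 24 were higher in Oct4-GFP SNEL#1 and 16 in Oct4-GFP OSKM#2, and 0 were lower in either (of all genes, 14.8% higher and 21.9% lower, and 11.1% and 9.56%). Against Nanog-GFP ESCs, 3 were higher and 9 lower in Nanog-GFP SNEL#3, 2 were higher and 10 lower in Nanog-GFP SNEL#2, and 8 were higher and 1 lower in Nanog-GFP OSKM#2. The shares of all genes were 21.2% and 17.8%, 17.5% and 15.7%, and 16.6% and 16%. In KH2_OSKM 11 were higher than in KH2 ESCs and 1 was lower, against 20.3% and 22.9% of all genes. The median difference over the 24 was 3.72 in Oct4-GFP SNEL#1, 2.95 in Oct4-GFP OSKM#2, 1.85 in KH2_OSKM, 0.91 in Nanog-GFP OSKM#2, -0.66 in Nanog-GFP SNEL#3 and -0.80 in Nanog-GFP SNEL#2, while over all genes these medians lay between -0.15 and 0.01.

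Dux itself, singled out after its values were seen, ranged over 0.80 and did not pass the F test (adjusted p = 0.715). It lay at -4.20 in Oct4-GFP SNEL#1, -4.40 in Nanog-GFP SNEL#2 and -4.61 in Nanog-GFP SNEL#3, and between -4.13 and -3.88 in the 4 OSKM lines, against -4.64 in Nanog-GFP ESCs, -4.49 in Oct4-GFP ESCs and -3.84 in KH2 ESCs, its highest line. Its probe was well above background on 18 of 20 arrays.

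Regulators of the two-cell-like state were measured in 27 of 27 names, and their correlations with the members' mean lay between -0.75 and 0.39, with a median of -0.35. Lin28a, which encodes an RNA-binding protein, was lowest in Oct4-GFP SNEL#1 (2.32), and stood at 5.46 in Nanog-GFP SNEL#3 and 5.18 in Nanog-GFP SNEL#2, against 4.76 in Oct4-GFP ESCs, 3.86 in Nanog-GFP ESCs and 5.60 in KH2 ESCs. Its correlation was -0.63. Dppa2, an activator of Dux, was highest in Oct4-GFP SNEL#1 (3.63) and Oct4-GFP OSKM#2 (3.49), against 2.66 in Oct4-GFP ESCs, with a correlation of 0.38. The widest ranges in this list were those of Dppa3 (4.23), a maternal factor, and Gata2 (3.72), and neither followed the members (correlations 0.00 and -0.06). Ranges of 1.13 for L3mbtl2, 1.04 for Mga, 0.99 for Kdm1a and 0.97 for Smarcad1 were narrower than those of the members that moved. Against Oct4-GFP ESCs, 2 of the 27 were higher and 15 lower in Oct4-GFP SNEL#1, and 2 were higher and 2 lower in Oct4-GFP OSKM#2, the line next to it in Zscan4f (of all genes, 14.8% and 21.9%, and 11.1% and 9.56%). Against Nanog-GFP ESCs, 9 were higher and 4 lower in Nanog-GFP OSKM#2, 13 were higher and 4 lower in Nanog-GFP SNEL#3, and 11 were higher and 4 lower in Nanog-GFP SNEL#2, beside 16.6% and 16%, 21.2% and 17.8%, and 17.5% and 15.7% of all genes. In KH2_OSKM 1 was higher than in KH2 ESCs and 16 were lower, beside 20.3% and 22.9%. The 4 of 27 lower in each Nanog-GFP line and the 2 of 27 in either direction in Oct4-GFP OSKM#2 are near those shares. The median difference over the 27 lay between -0.36 (KH2_OSKM) and 0.20 (both Nanog-GFP SNEL lines) in the 6 pairs.

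Telomere and meiotic recombination genes were measured in 13 of 14 names. Smc1b, a meiotic cohesin subunit, ranged over 4.80 with a correlation of 0.80, with line means of 2.73 in Oct4-GFP SNEL#1 and -0.48 in Nanog-GFP SNEL#3, against -0.06 in Oct4-GFP ESCs and -2.07 in KH2 ESCs. Hormad1, a meiotic chromosome axis protein, ranged over 2.82 with a correlation of 0.86, while Meiob (3.74), Sycp3 (2.67) and Dmc1 (1.42) had correlations of 0.61, 0.50 and 0.41. The telomere genes Rtel1 (range 1.79), Terf2 (1.50) and Pot1a (1.01) had correlations of -0.63, -0.47 and -0.20. Narrower, and singled out after their values were seen, were Terf1 (range 0.46, correlation 0.64) and Tert (0.74 and 0.41). Terf1 was higher in Oct4-GFP OSKM#2 and KH2_OSKM than in their ESC lines, and Tert in both Oct4-GFP iPSC lines. Rtel1 and Terf2 were lower than in the ESC line in Oct4-GFP SNEL#1 (-1.06 and -0.89) and KH2_OSKM (-1.35 and -1.21). Both were higher than in the ESC line in the Nanog-GFP iPSC lines, and Rtel1 was lower in Oct4-GFP OSKM#2 (-0.39). In Oct4-GFP SNEL#1, 6 of the 13 were higher and 4 lower than in Oct4-GFP ESCs, and in Oct4-GFP OSKM#2 6 were higher and 1 lower, beside 14.8% and 21.9%, and 11.1% and 9.56%, of all genes. Against Nanog-GFP ESCs, 2 were higher and 5 lower in both SNEL lines, and 2 were higher and 3 lower in Nanog-GFP OSKM#2, where 16% to 21.2% of all genes were called in each direction (15.7% lower in Nanog-GFP SNEL#2), so that most of these counts are near the background. In KH2_OSKM 7 were higher and 3 lower than in KH2 ESCs, beside 20.3% and 22.9%. The median difference over the 13 lay between -0.05 (Nanog-GFP SNEL#2) and 0.26 (KH2_OSKM) in the 6 pairs.

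**Figure D5:**
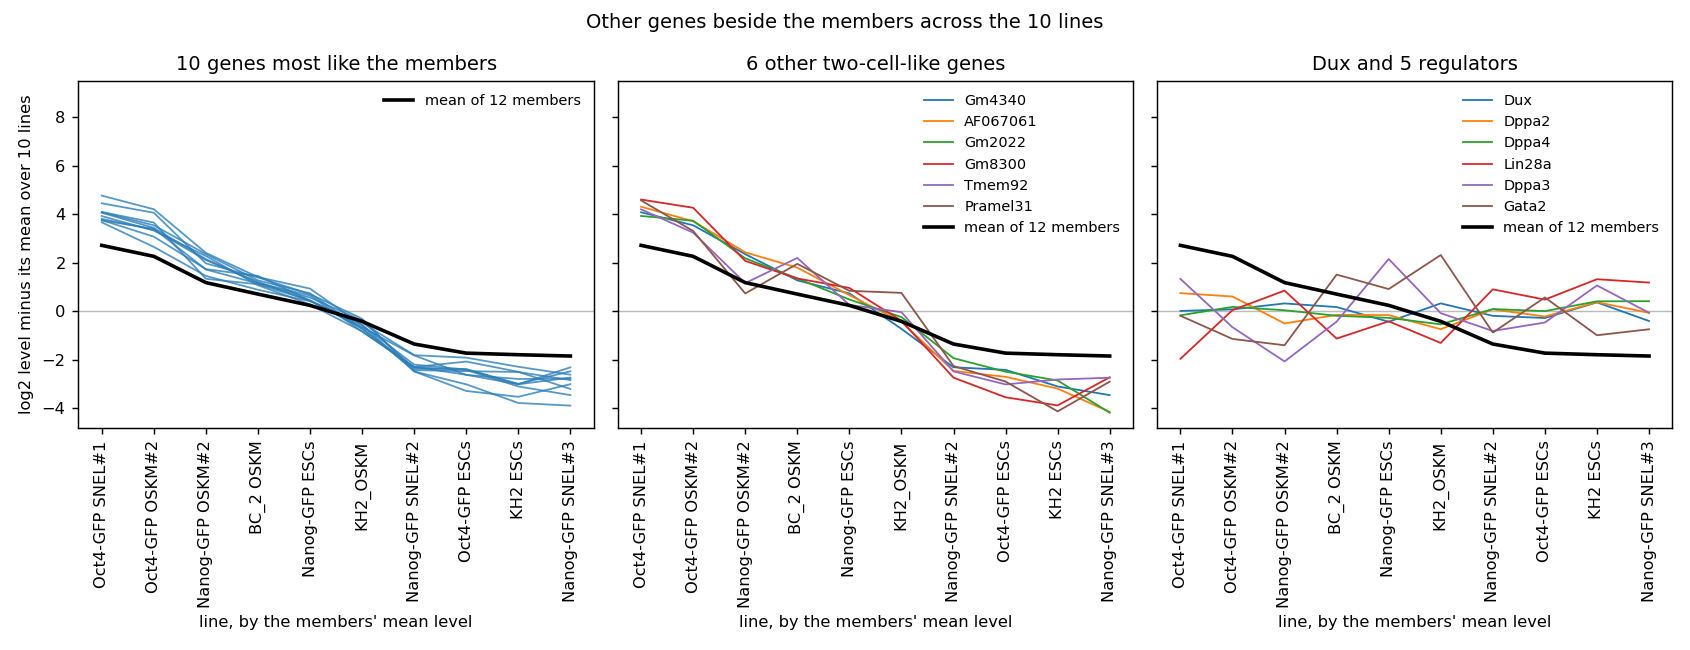
Log2 level minus its mean over the 10 lines, with lines ordered by the members' mean level (thick black line), for the 10 genes most like the members, 6 other two-cell-like genes, and Dux with 5 regulators. The genes of the left and middle panels are high in Oct4-GFP SNEL#1 and low at the other end of the order, while Dux and Dppa4 stay within 1 unit of 0.

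Germ cell markers were measured for 6 of 7 names. Their mean level was 0.67 in Oct4-GFP SNEL#1, -0.09 in Oct4-GFP OSKM#2, -0.55 in Nanog-GFP OSKM#2, 0.44 in BC_2 OSKM, 0.40 in KH2_OSKM, -1.15 in Nanog-GFP SNEL#2 and -1.50 in Nanog-GFP SNEL#3, and between -1.55 and 0.05 in ESC lines. The order thus differed from that of the members, in which Oct4-GFP OSKM#2 was the second. Correlations with the members' mean were 0.87 for Tex101, 0.83 for Dazl, 0.75 for Mael, 0.50 for Sycp3 and 0.32 for both Ddx4 and Piwil2. Over the pluripotency markers these correlations ran between -0.75 (Zfp42) and 0.51 (Nanog). Fibroblast markers, 10 of 10 measured, averaged -4.69 to -1.31 in iPSC lines and -1.82 to -1.07 in ESC lines, and the most fibroblast signal among iPSC lines was in Oct4-GFP SNEL#1. Primitive endoderm markers, 7 of 7 measured, averaged -4.28 to -3.12 in iPSC lines and -3.75 to -3.27 in ESC lines. The fibroblast markers averaged -1.31 in Oct4-GFP SNEL#1 and -4.24 in Oct4-GFP OSKM#2. The part of these cell types in the members' levels was not tested.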

How the data were processed

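The deposited files are scanner output of 1-colour Agilent arrays (design Agilent-028005, probe positions on mm9, Feature Extraction 10.1.1.1, per the file headers), 20 arrays with 62976 spots each. Per the labels' protocols, 300 ng of RNA labelled with Cy3 was hybridised. The processed intensity is background-subtracted by the scanner software, per the file headers, and not scaled between arrays. The deposited flags give 0 or 1 per spot for signal well above background, saturation and outliers, per the file headers. The authors' value table is in log2, with column medians of 6.27 to 6.28 and its other scaling unstated. It was used as an alternative only, and the submitters' processing notes name limma.

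Control spots and outlier flags were left out, which touched 0 member probes, and 0 probes were saturated. Spots of a probe were averaged, and 26413 probes took current symbols through their RefSeq accession (3093 changed). Levels are log2 of the processed intensity minus the array's 75th percentile. The brightest probe stood for a gene, and genes well above background on 4 or more of 20 arrays were tested (27203 genes). limma 3.58.1 in R 4.3.3 fitted 1 mean per line on 20 arrays for comparisons of lines, and line means for comparisons of groups, with Benjamini-Hochberg adjustment over all genes and a threshold of 0.05. The number of arrays limits the precision. Where a probe was not well above background on any array of a line, the fold is the brighter line's mean over the dimmer line's mean. In the dimmer line, no array's value was let below the dimmest reading that the scanner software still called well above background. That floor left most folds unchanged, so they are not lower bounds. These fits were tested on simulated data.

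The members and lists were chosen with earlier results of these data known. Named were all members, the 10 genes most and 5 least correlated with their mean over lines, and up to 8 genes with the widest range from each list. Alternatives were quantile normalization, normexp background (offset 50), the authors' value table, no filter, the mean of probes, slide or replicate number as a block, and each line left out.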

Additional observations from a re-analysis of the deposited data

Results flagged for a closer look

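The following differences between reporters passed the test of the difference itself (interaction in limma, Benjamini-Hochberg adjusted), in comparisons chosen after the levels of the lines had been seen. Nanog-GFP stands for both SNEL lines averaged, and each value rests on 1 to 2 lines per cell of the comparison. For SNEL minus OSKM in Oct4-GFP minus the same in Nanog-GFP, Zscan4e differed by 7.16 (adjusted p = 9.31e-10), Zscan4f by 6.77 (adjusted p = 1.02e-06), Zscan4a by 5.41 (adjusted p = 0.00165), Zscan4-ps1 by 5.18 (adjusted p = 6.24e-05), Zscan4c by 4.97 (adjusted p = 7.81e-07) and Tcstv3 by 3.17 (adjusted p = 0.00368). In the other direction stood Usp17la at -1.13 (adjusted p = 0.0448) and Zfp352 at -0.70 (adjusted p = 0.015). The Usp17la value is that of the brighter probe, with which the dimmer one disagrees. The dimmer one averaged -1.65 in Oct4-GFP SNEL#1 and -2.60 in Oct4-GFP OSKM#2. In Nanog-GFP SNEL#3, SNEL#2 and OSKM#2 it averaged -6.53, -7.35 and -5.17, so its direction was that of the Zscan4 genes.

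For SNEL minus ESC in Oct4-GFP minus the same in Nanog-GFP, the Zscan4 genes differed by 12.22 (Zscan4e), 11.86 (Zscan4f), 10.35 (Zscan4a), 8.97 (Zscan4-ps1) and 8.61 (Zscan4c). Usp17lb differed by 7.72 (adjusted p = 0.000303), Tcstv3 by 7.52 (adjusted p = 3.01e-06), Tcstv1 by 6.53 (adjusted p = 0.00488), Usp17lc by 2.03 (adjusted p = 0.0108) and Usp17ld by 1.47 (adjusted p = 0.0051). Zfp352 ran the other way at -0.99 (adjusted p = 0.00122). All these sizes other than those of Zfp352 are inexact. Each takes in Nanog-GFP SNEL#3, where Zscan4a and Usp17ld were well above background on 1 of 2 arrays and the other genes named, apart from Zfp352, on 0. Tcstv1, Tcstv3, Usp17lb and Zscan4-ps1 were also not well above background on either array of Nanog-GFP SNEL#2. The same held for these genes in Oct4-GFP ESCs, which enter SNEL minus ESC.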

How the results depend on the processing

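Counts of members called that stayed within 1.5 times included those in Nanog-GFP OSKM#2 (4 higher, and 3 to 6 in the alternatives) and in the F test between lines (11, and 10 to 12). The following counts moved further. In KH2_OSKM against KH2 ESCs, 2 were called lower, but 4 with quantile normalization, 1 without the filter and 1 with slide as a block. Nanog-GFP SNEL#2 had 1 called higher and 2 with normexp. Oct4-GFP SNEL#1 had 0 called lower and 1 with slide as a block. Differences between a line's 2 arrays correlated at -0.0967 to 0.513 over 45 pairs of lines (median 0.169, 29 over 0.1). The labels tie array numbers to no shared day or batch, but array number follows the slide in part. No array 2 lay on slide 1 and no array 1 on slide 3, so these correlations cannot be told apart from slide. Not every pair was over 0.1 either, so pairing by number is not established. With the replicate number as a block Oct4-GFP SNEL#1 also had 1 called lower, and Oct4-GFP SNEL#1 minus Oct4-GFP OSKM#2 had 2 called higher in place of 1. That comparison gave 2 with quantile normalization, 4 with normexp, 3 with the authors' value table, 2 with the mean of probes and 2 with slide as a block (then 1 lower in place of 0). Nanog-GFP SNEL#2 minus Nanog-GFP OSKM#2 had 2 higher, and 1 with quantile normalization, the authors' value table, no filter or the mean of probes. Nanog-GFP SNEL#3 minus Nanog-GFP OSKM#2 had 1 higher and 2 with normexp. Of the interaction of SNEL minus OSKM, 2 were lower, with 0 under quantile normalization and the authors' value table and 1 under normexp, no filter and the mean of probes. Of the interaction of SNEL minus ESC, 1 was lower, and 2 with slide as a block.

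The sign turned in these cases, beside those within a slide. Tcstv1 in KH2_OSKM (0.34) was -0.74 with quantile normalization, -0.41 with normexp and -0.70 with the authors' value table. Zfp352 in Oct4-GFP SNEL#1 minus Oct4-GFP OSKM#2 (0.01) was -0.01 with normexp. With the mean of both probes, Usp17la was -0.63 in Nanog-GFP SNEL#2 minus Nanog-GFP OSKM#2 (0.92) and 0.79 in the interaction of SNEL minus OSKM (-1.13), as the probes disagree. Zscan4f in good minus ESC lines (0.20) was -0.05 with quantile normalization, Zfp352 in iPSC minus ESC lines (0.03) was -0.03 with slide effects removed, and Tcstv3 in SNEL minus OSKM lines (-1.05) was 0.01 with normexp. With 1 line left out at a time, good minus ESC ranged between -3.03 and 3.43 for Zscan4f and between -2.09 and 2.21 for Zscan4c. High minus ESC ranged between -0.16 and 6.52 for Zscan4f, -0.46 and 5.11 for Zscan4c, -0.003 and 5.06 for Tcstv3, and -0.42 and 0.60 for Zfp352. In iPSC minus ESC, Zfp352 ranged between -0.09 and 0.12. Calls lost in single genes include Zscan4f in Nanog-GFP OSKM#2 with quantile normalization (1.73), and with normexp Zscan4-ps1 in Nanog-GFP SNEL#3 (-0.25) and Tcstv3 in Nanog-GFP SNEL#2 (-0.05). The causes were not tested. Signal over background limits Tcstv1, Tcstv3, Usp17lb and Zscan4-ps1, which were well above background on 10 to 13 of 20 arrays.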
